A study of Mus musculus with 26 samples.

Results

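The genes described here are Trp53, which encodes the transcription factor p53, and 31 genes known as its targets or feedback partners, 32 genes of the 54146 listed in the count files. They were taken by mouse gene symbol from a list compiled for the p53 pathway, and all 32 matched an Ensembl gene. RNA was measured in MA9 cells, a mouse model of acute myeloid leukemia in which lineage-negative bone marrow cells carry the MLL-AF9 fusion oncogene by retroviral transduction. The MA9+SETDB1 arm had also received a retrovirus with SETDB1, which methylates histone H3 at lysine 9. The MA9+EV arm had received the empty puromycin-resistance vector in its place. Both arms therefore carried MLL-AF9 and a puromycin-selected vector, and both were grown with IL-3 and SCF. Cultures were kept for 8 to 12 weeks, including 3 to 6 weeks of selection. The labels number 3 libraries per arm and do not say whether they came from separate transductions, so that a p-value here weighs only library-to-library spread, which may be technical.

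The protein p53 binds DNA as a tetramer and raises the transcription of genes for cell cycle arrest, cell death, DNA repair and metabolism. It is held low by MDM2, a ubiquitin ligase that is itself a p53 target, and by the MDM2 partner MDM4. The ARF protein, encoded at the Cdkn2a locus, blocks MDM2. In blood progenitors, p53 limits the response to oncogenes, DNA damage and growth factor loss. Many of its target genes also respond to other factors, so that their transcript levels are not a measure of p53 activity by themselves.

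Each library held between 18070482 and 22561757 counts over genes. Setdb1 stood at 475, 605 and 607 CPM (counts per 1e6 counts of scaled library size) in MA9+SETDB1 replicates 1, 2 and 3, against 105, 108 and 109 CPM in MA9+EV replicates 1, 2 and 3. Replicate 1 stood apart from replicates 2 and 3 in both arms. A chi-square statistic over genes was 85.7 and 93.4 per degree of freedom for the MA9+SETDB1 pairs that included replicate 1 and 2.99 for replicates 2 and 3. In MA9+EV it was 80.3 and 71.4 for the pairs with replicate 1 and 4.03 for replicates 2 and 3. The arms differed widely in blood lineage genes. Summed levels of 8 mast cell and basophil markers were 11180 to 11360 CPM in MA9+SETDB1 and 48.2 to 84.8 CPM in MA9+EV. All 8 had reads in both arms. In MA9+EV, Cma1, Cpa3, Il1rl1, Fcer1a and Prss34 had only 1, 5, 5, 9 and 20 reads over the 3 libraries. Nearly all of the MA9+EV sum was Hdc, Mcpt8 and Ms4a2. Summed levels of 9 myeloid progenitor and granule markers, which define the labelled cell type, were 871 to 1029 CPM in MA9+SETDB1 and 15340 to 17170 CPM in MA9+EV. Of these 9, 7 fell and Cebpa rose, and none was at 0 in either arm, although Kit averaged 1.07 CPM and Elane 4.83 CPM in MA9+SETDB1. Summed levels of 8 erythroid markers were 2061 to 2244 CPM in MA9+SETDB1 and 928 to 955 CPM in MA9+EV, where nearly all of the sum was Tfrc, the transferrin receptor gene of many dividing cells. Tfrc did not pass (1038 to 1251 CPM in MA9+SETDB1, 928 to 954 CPM in MA9+EV), while the other 7 erythroid markers rose, none of them above 1.06 CPM in any MA9+EV library and Alas2 at 0 there. The 6 megakaryocyte markers summed to 523 to 652 CPM in MA9+SETDB1 and to 2.602 to 3.27 CPM in MA9+EV. In MA9+SETDB1 nearly all of this was Itga2b (518 to 644 CPM, against at most 0.33 CPM in MA9+EV), which mast cells and other progenitors also express. Vwf also rose, while Pf4 fell (at most 0.304 CPM in MA9+SETDB1 and 1.36 CPM in MA9+EV) and Gp1bb was at 0 in MA9+SETDB1. The 5 eosinophil markers summed to 105 to 152 CPM in MA9+SETDB1 and to 4.48 to 6.90 CPM in MA9+EV, where Ccr3 and Il5ra were at 0. Ms4a1 and Pax5 were at 0 in both arms, and the 5 B cell markers summed to at most 0.122 CPM in MA9+SETDB1 and 0.101 CPM in MA9+EV. The 5 T cell markers summed to 2.57 to 6.96 CPM in MA9+SETDB1 and 6.44 to 6.76 CPM in MA9+EV. Of these, Lck fell (log2 fold change -0.91, adjusted p = 0.0345 by edgeR) and made up the whole MA9+EV sum, while Cd3g had 4, 49 and 45 reads in MA9+SETDB1 replicates and 0 in each MA9+EV replicate. The 5 stromal and vascular markers summed to 127 to 134 CPM in MA9+SETDB1 and 230.0 to 365 CPM in MA9+EV, nearly all of it Pecam1, which leukocytes also express, the other 4 reaching at most 0.364 CPM in any library. Cd3e, Cd4 and Cd8a of the T cell list and Cdh5 of the stromal list were at 0 in both arms. The part of these lineage differences in the changes below was not tested, and in bulk RNA a change in the number of cells of a type cannot be told apart from a change in RNA per cell.

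All 32 genes passed the filter on low counts. Of these, 18 rose, 3 fell and 11 did not pass (edgeR quasi-likelihood test, Benjamini-Hochberg adjusted p under 0.05 over 12986 genes). Among all genes tested, 27.4% were called higher and 26.2% lower, so that 53.5% were called in one direction or the other. A rise of more than 2-fold was called for 14 of the 32 genes, against 18.2% of all genes, and a fall of more than 2-fold for 2, against 14.8%. All 3 MA9+SETDB1 libraries lay above all 3 MA9+EV libraries for 19 of the 32 genes, where 32.1% of all genes did so, and below them for 5, where 32.5% did so. The median log2 fold change was 0.79 over the 32 genes and -0.01 over all genes tested. The range ran from -2.72 for Tigar to 11.69 for Perp. The block by replicate number gave 18 of the 32 genes higher and 5 lower, beside 3791 higher and 3761 lower over all genes. By the libraries' correlations, the numbers separate replicate 1 from the others and not 2 from 3. The added calls were Apaf1 and Ckap2. Neither passed with replicates 2 and 3 summed (adjusted p = 0.309 for Apaf1 and 0.29 for Ckap2). With replicate 1 left out of both arms, an alternative chosen after seeing the data, 21 of the 32 genes were higher and 6 lower, beside 5314 higher and 5285 lower over all genes tested. With replicates 2 and 3 of each arm summed, the rises of Trp53, Plk2, Tnfrsf10b, Ddb2 and Rrm2b lost their call. That summed fit also called fewer genes over all.

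**Figure D1:**
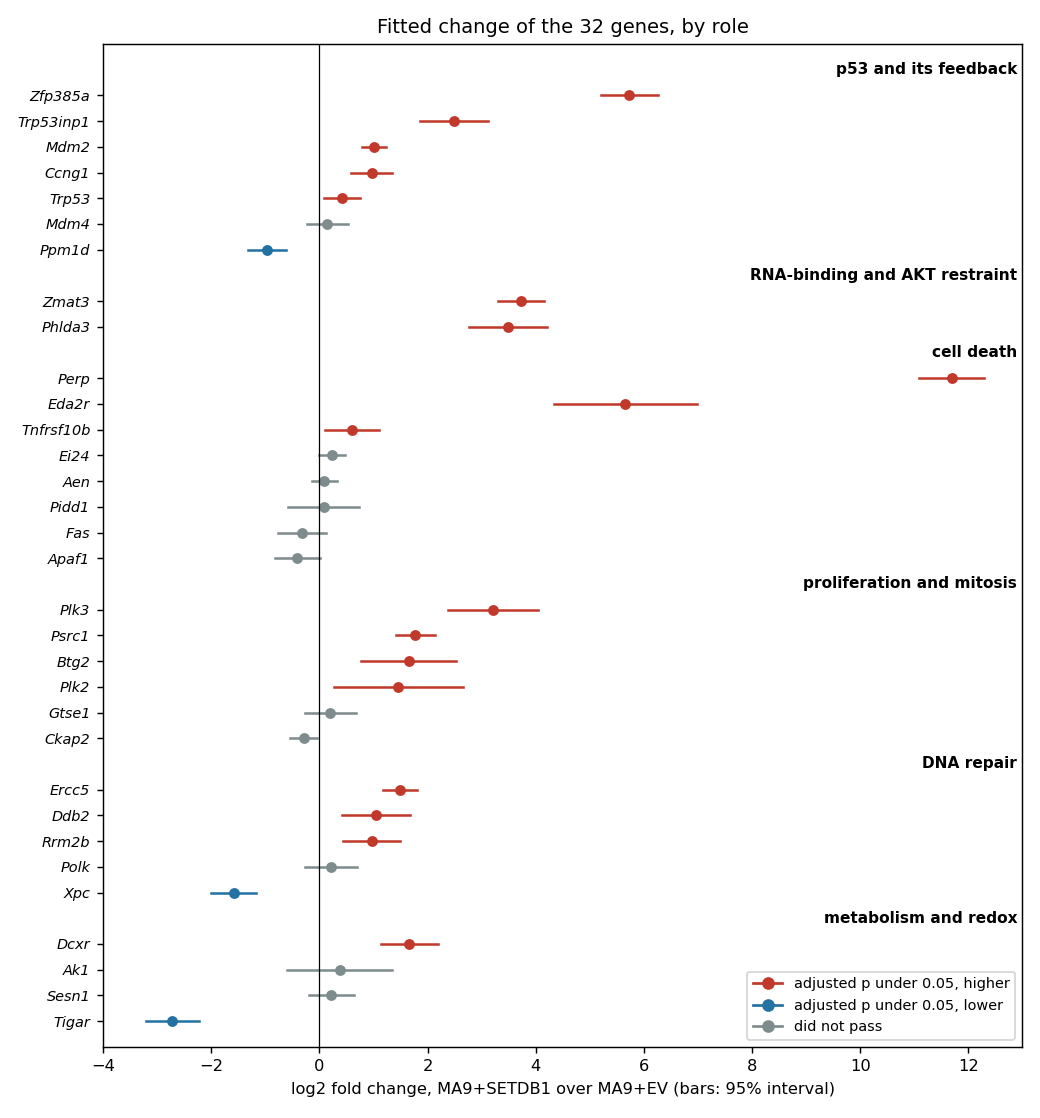
Fitted log2 fold change of MA9+SETDB1 over MA9+EV for the 32 genes, grouped by role, with 95% intervals from the fit to 3 libraries per arm. Points right of 0 are higher in MA9+SETDB1; 18 rose (red), 3 fell (blue) and 11 did not pass (grey), with Perp at 11.69 and Tigar at -2.72.

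Promoter windows of 300 bases, from 250 before to 50 after an annotated start, were given by RefSeq (GRCm38.p6) for 25 of the 32 genes, as 35 windows. No window was given for Ddb2, Perp, Rrm2b, Tnfrsf10b, Trp53inp1, Xpc or Zmat3, so these genes, all of them called, were not searched. The windows were searched for the p53 consensus site, a pair of decamers with a spacer of at most 1 base. Up to 3 mismatches were allowed over the pair, with none at the core C and G of each decamer. The site reads alike on both strands, and no other motif was searched. A match was found in 9 of the 35 windows (25.7%), belonging to 8 genes, and in 2.82% of all 32851 windows. With at most 1 mismatch, 2 of the 35 windows (5.71%) and 0.11% of all windows held a match. The genes were listed as p53 targets from earlier knowledge, so this share is a description of the list. A match is not a measured binding site, and no match says only that these letters are not in the window. The stretches printed are the 6 genes with the fewest mismatches, ties in alphabetical order, because they show how close each promoter comes to the consensus beside the change of its gene. Capitals mark the matched site, which in Dcxr includes a spacer of 1 base, and each is written 5′ to 3′ on the strand of the gene.
Ccng1: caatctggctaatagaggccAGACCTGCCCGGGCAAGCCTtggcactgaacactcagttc
Gtse1: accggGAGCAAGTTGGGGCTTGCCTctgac
Ckap2: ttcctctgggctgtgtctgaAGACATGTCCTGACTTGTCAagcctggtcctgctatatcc
Aen: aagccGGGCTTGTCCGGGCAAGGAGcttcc
Dcxr: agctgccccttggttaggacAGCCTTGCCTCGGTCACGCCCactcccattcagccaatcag
Sesn1: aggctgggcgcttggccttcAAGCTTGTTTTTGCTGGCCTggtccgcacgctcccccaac

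The Ccng1 stretch lies at chr11:40755442-40755501 on the minus strand, with its site beginning 195 bases before the start and 1 mismatch. The Gtse1 stretch lies at chr15:85859940-85859969 on the plus strand, with its site beginning 1 base before an annotated start and 1 mismatch. The Ckap2 stretch (chr8:22185983-22186042, minus strand) has 2 mismatches and a site that begins 203 bases before the start. The Aen stretch (chr7:78895932-78895961, plus strand) has a site that begins 121 bases before one annotated start and 10 bases past another. The Dcxr stretch is at chr11:120727366-120727426 on the minus strand and the Sesn1 stretch at chr10:41887246-41887305 on the plus strand, each with 3 mismatches, as for Aen. Tigar and Trp53 also held a site with 3 mismatches. Of the 3 genes with at most 2 mismatches, Ccng1 rose, while Gtse1 and Ckap2 had adjusted p = 0.411 and 0.0505.

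Among p53 and its feedback partners, 5 of 7 genes rose (71.4%, against 27.4% of all genes) and 1 fell (14.3%, against 26.2%). Mdm4 did not pass. Trp53 itself (ENSMUSG00000059552.13, GRCm38 chromosome 11, 69580348 to 69591873) stood at 221, 185 and 181 CPM in MA9+SETDB1 replicates 1, 2 and 3, against 169, 135 and 135 CPM in MA9+EV replicates 1, 2 and 3. The arms did not overlap, but the rise was small. Its log2 fold change was 0.42 (adjusted p = 0.038 by edgeR, SE 0.14), and the call was lost when any single library other than MA9+EV replicate 1 was left out (adjusted p = 0.0591 to 0.137), with upper-quartile scaling (0.0602), without the low-count filter (0.0536) and with replicates 2 and 3 summed (0.215).

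Mdm2 (ENSMUSG00000020184.15, chromosome 10, 117688875 to 117710758), whose ubiquitin ligase product degrades p53, stood at 179, 168 and 179 CPM in MA9+SETDB1 replicates, against 92.7, 84.0 and 84.5 CPM in MA9+EV replicates. It doubled with little spread, at a log2 fold change of 1.01 (adjusted p = 0.000188 by edgeR, SE 0.09). Mdm4 (ENSMUSG00000054387.13, chromosome 1, 132986105 to 133030587), which encodes the partner of MDM2 that masks the activation domain of p53, had 175, 137 and 141 CPM in MA9+SETDB1 replicates and 162, 121 and 124 CPM in MA9+EV replicates. The arms overlapped, and the log2 fold change was 0.15 with a 95% interval of -0.23 to 0.53 (edgeR adjusted p = 0.464). Ppm1d (ENSMUSG00000020525.17, chromosome 11, 85311254 to 85347071), the WIP1 phosphatase gene whose product removes activating phosphates from p53, was lower in all 3 MA9+SETDB1 libraries. It had 16.9, 13.7 and 15.2 CPM there, against 33.6, 27.6 and 28.8 CPM in MA9+EV replicates 1, 2 and 3. It fell by 0.97 on the log2 scale (adjusted p = 0.00164 by edgeR, SE 0.15). The p53 targets Mdm2 and Ppm1d, both genes of negative feedback, thus moved in opposite directions.

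Ccng1 (ENSMUSG00000020326.7, chromosome 11, 40748552 to 40755309), the cyclin G1 gene, whose product acts on MDM2 with a phosphatase, stood at 442, 378 and 388 CPM in MA9+SETDB1 replicates, against 251, 192 and 175 CPM in MA9+EV replicates. The arms were well apart, with a log2 fold change of 0.97 (adjusted p = 0.0024 by edgeR, SE 0.16). Trp53inp1 (ENSMUSG00000028211.11, chromosome 4, 11156441 to 11174379) encodes a nuclear protein that promotes the phosphorylation of p53. It had 172, 96.4 and 102 CPM in MA9+SETDB1 replicates 1, 2 and 3, with replicate 1 the highest, against 24.5, 23.2 and 18.2 CPM in MA9+EV replicates. The fold change on the log2 scale was 2.49 (adjusted p = 0.000325 by edgeR, SE 0.26). Zfp385a (ENSMUSG00000000552.10, chromosome 15, 103313895 to 103340086) encodes a zinc finger protein that binds p53 and favours its arrest targets, and is also known from mouse megakaryocytes. It stood at 168, 135 and 128 CPM in MA9+SETDB1 replicates, against 3.43, 2.20 and 2.42 CPM in MA9+EV replicates. It was 53.2-fold higher by the fit (log2 fold change 5.73 with SE 0.22, adjusted p = 5.91e-06 by edgeR).

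**Figure D2:**
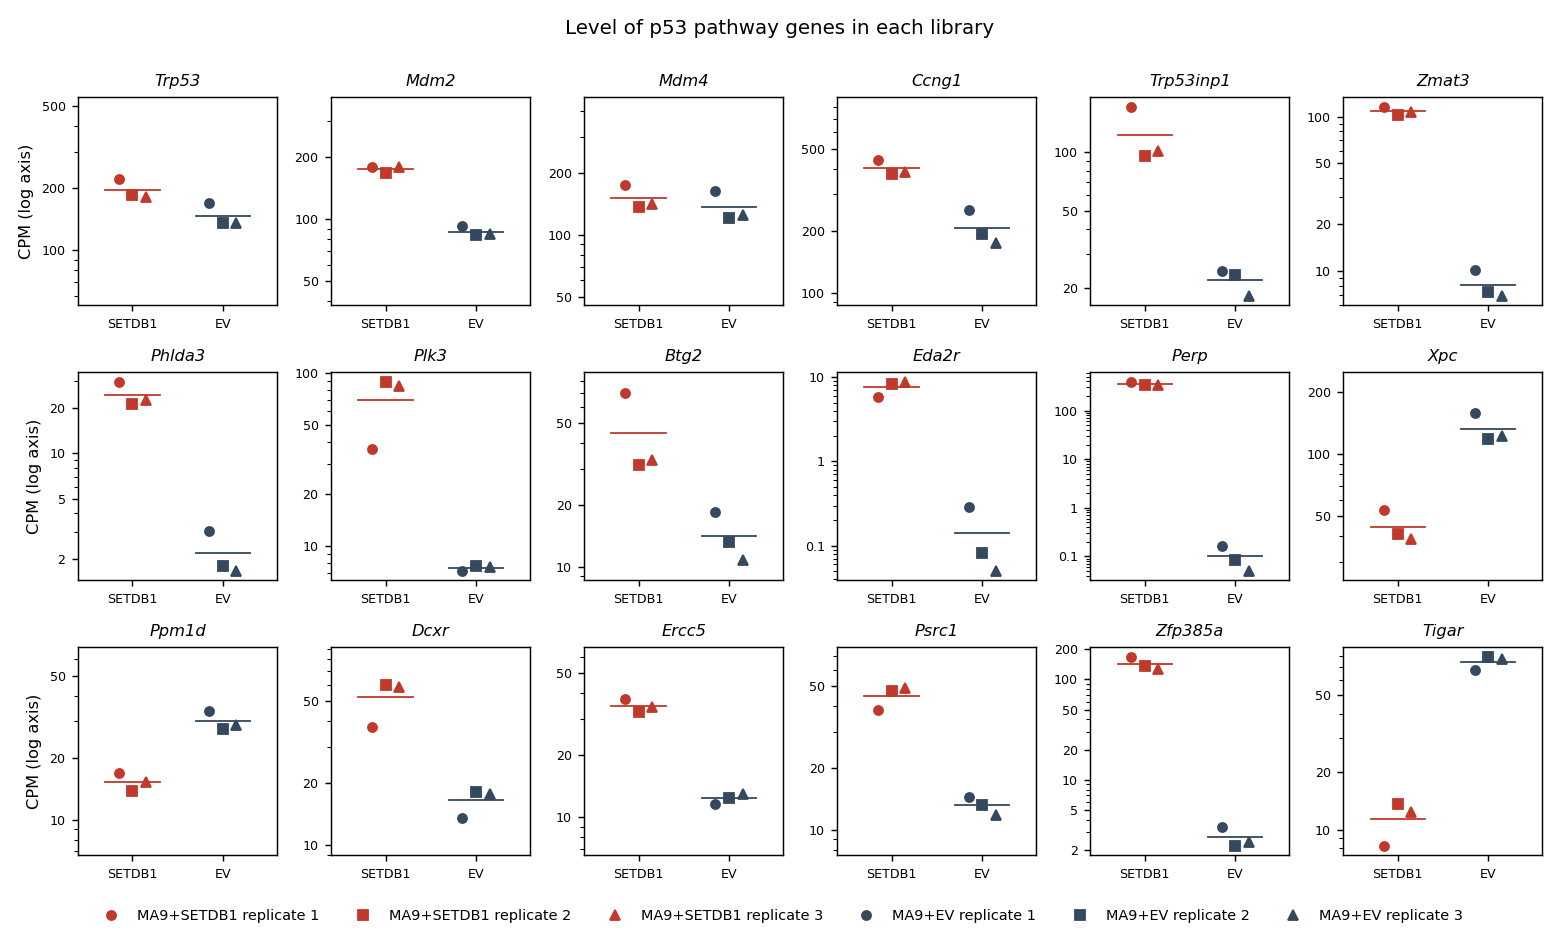
CPM of 18 genes in every library on log axes whose ranges differ between panels, with MA9+SETDB1 (red) left of MA9+EV (dark blue), symbols for replicates 1 to 3 and a line at the arm mean (n = 3). The panels show the genes with the smallest p among the 32, with Trp53 and Mdm4 added whatever their p. This choice favours panels in which the arms are apart. The arms are apart in 17 panels and overlap for Mdm4. Tigar, Xpc and Ppm1d are lower in MA9+SETDB1. Over all 32 genes the arms overlap for 8. Among all genes tested, every MA9+SETDB1 library lies above every MA9+EV library for 32.1% and below for 32.5%.

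Zmat3 and Phlda3, a pair of well-known p53 target genes, rose more than 10-fold each. Zmat3 (ENSMUSG00000027663.12, chromosome 3, 32334792 to 32365665), which encodes an RNA-binding zinc finger protein that acts on splicing, stood at 116, 102 and 106 CPM in MA9+SETDB1 replicates, against 10.2, 7.34 and 6.90 CPM in MA9+EV replicates. The fit gave 13.3-fold (log2 fold change 3.73 with SE 0.18, adjusted p = 1.28e-05 by edgeR). Phlda3 (ENSMUSG00000041801.5, chromosome 1, 135766085 to 135769134), whose pleckstrin homology product restrains AKT, had 29.7, 21.2 and 22.3 CPM in MA9+SETDB1 replicates and 3.06, 1.78 and 1.66 CPM in MA9+EV replicates. In both arms replicate 1 was the highest, and the fit gave 11.2-fold (edgeR adjusted p = 0.000152).

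Of the 8 genes for cell death, 3 rose (37.5%, against 27.4% of all genes), none fell (26.2% of all genes did) and 5 did not pass. Their median log2 fold change was 0.16. At an unadjusted p under 0.05 by edgeR 0 of the 8 were lower, and 0 by DESeq2. Perp (ENSMUSG00000019851.8, chromosome 10, 18845071 to 18857073), which encodes a membrane protein of desmosomes that promotes apoptosis, had the largest change of the 32 genes. It stood at 394, 339 and 341 CPM in MA9+SETDB1 replicates, from 7034, 5574 and 6568 reads. In MA9+EV replicates 1, 2 and 3 it had 4, 2 and 1 reads, or 0.165, 0.083 and 0.0504 CPM. The gene was thus abundant in one arm and near the detection limit in the other, at a log2 fold change of 11.69 (adjusted p = 1.02e-06 by edgeR, SE 0.26).

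Eda2r (ENSMUSG00000034457.10, chromosome X, 97333837 to 97377234), the gene of a TNF-family receptor for the A2 form of ectodysplasin, had 103, 135 and 170 reads in MA9+SETDB1 replicates, or 5.76, 8.22 and 8.83 CPM, against 7, 2 and 1 reads in MA9+EV replicates. The log2 fold change was 5.66 (adjusted p = 0.000253 by edgeR, SE 0.56). Tnfrsf10b, the TRAIL receptor gene, ranged from 11.4 to 14.0 CPM in MA9+SETDB1 and from 7.10 to 10.1 CPM in MA9+EV. Its log2 fold change was 0.61 (adjusted p = 0.0471 by edgeR, SE 0.21), and the call was lost under 9 of 15 alternatives, including leaving out any single library but MA9+EV replicate 1 (adjusted p = 0.0768 to 0.155).

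The other 5 cell death genes did not pass. Fas, the death receptor gene, was at 6.45 to 6.596 CPM in MA9+SETDB1 and 7.31 to 8.61 CPM in MA9+EV, with a log2 fold change of -0.32 (95% interval -0.76 to 0.12, edgeR adjusted p = 0.189). Its 3 MA9+SETDB1 libraries lay below the MA9+EV range, unlike those of Tnfrsf10b, which lay above it. Apaf1, the scaffold gene of the apoptosome, ranged from 108 to 159 CPM in MA9+SETDB1 and from 155 to 190 CPM in MA9+EV. It had a log2 fold change of -0.41 (edgeR adjusted p = 0.0889), and -0.42 with an adjusted p = 0.0141 in the blocked fit. It also passed without MA9+SETDB1 replicate 1 (adjusted p = 0.00735) and not with replicates 2 and 3 summed (0.309). Ei24, whose product sits in the endoplasmic reticulum and takes part in autophagy, had a log2 fold change of 0.23 (edgeR adjusted p = 0.0876). Aen, which encodes a nuclease that promotes apoptosis, overlapped between the arms, with a narrow interval for the log2 fold change of -0.14 to 0.32 (edgeR adjusted p = 0.473). Pidd1, the gene of the platform that activates caspase-2, ranged from 26.3 to 45.1 CPM in MA9+SETDB1 and from 25.9 to 41.5 CPM in MA9+EV (edgeR adjusted p = 0.824).

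Of the 6 genes for proliferation control and mitosis, 4 rose (66.7%, against 27.4% of all genes) and none fell (26.2% of all genes did) by edgeR. Only 1, Ckap2, was lower at an unadjusted p under 0.05 and by DESeq2. Plk3 (ENSMUSG00000028680.14, chromosome 4, 117128655 to 117133963), a polo-like kinase gene induced by stress and growth factors, stood at 36.3, 89.0 and 84.0 CPM in MA9+SETDB1 replicates, against 7.23, 7.68 and 7.61 CPM in MA9+EV replicates. MA9+SETDB1 replicate 1 was the lowest of its arm and still far above MA9+EV (log2 fold change 3.22 with SE 0.35, adjusted p = 0.000381 by edgeR). Its paralog Plk2 was scarce, at 1.97 to 3.80 CPM in MA9+SETDB1 and 0.581 to 1.65 CPM in MA9+EV. The log2 fold change of Plk2 was 1.46 (adjusted p = 0.0453 by edgeR, SE 0.50), a call lost under 8 of 15 alternatives, with replicates 2 and 3 summed (adjusted p = 0.195) and without any single library other than MA9+EV replicate 1 (0.0638 to 0.144) among them. Without MA9+EV replicate 1 it stood at 2.10.

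Btg2 (ENSMUSG00000020423.6, chromosome 1, 134074865 to 134079155), an antiproliferative gene whose product binds the mRNA deadenylase complex, had 69.9, 31.1 and 32.8 CPM in MA9+SETDB1 replicates and 18.5, 13.2 and 10.8 CPM in MA9+EV replicates. Replicate 1 was the highest in both arms, and the log2 fold change was 1.65 (adjusted p = 0.00865 by edgeR, SE 0.37). Psrc1 (ENSMUSG00000068744.12, chromosome 3, 108383804 to 108388231), which encodes a microtubule protein of the mitotic spindle, stood at 38.2, 47.5 and 48.9 CPM in MA9+SETDB1 replicates, against 14.4, 13.2 and 11.8 CPM in MA9+EV replicates. It rose by a log2 fold change of 1.77 (adjusted p = 0.000139 by edgeR, SE 0.15). Gtse1 and Ckap2 did not pass in the fit to all 6 libraries. Gtse1, whose product binds p53 and microtubules, ranged from 65.1 to 83.5 CPM in MA9+SETDB1 and from 52.3 to 80.8 CPM in MA9+EV (edgeR adjusted p = 0.411, or 0.0456 without MA9+EV replicate 1). Ckap2, a spindle protein gene, was at 30.2 to 32.5 CPM in MA9+SETDB1 and 37.4 to 40.6 CPM in MA9+EV. At a log2 fold change of -0.29, edgeR gave an adjusted p = 0.0505. It passed under 6 of 15 alternatives, with adjusted p = 0.0219 by upper-quartile scaling, 0.0333 by DESeq2, 0.0467 with a mean of at least 1 CPM, 0.0488 in the blocked fit, 0.0499 without MA9+SETDB1 replicate 1 and 0.00571 with replicate 1 left out of both arms. With replicates 2 and 3 summed the adjusted p was 0.29.

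For comparison, of 20 genes expressed in G2 and mitosis, none rose (27.4% of all genes did) and 3 fell (15%, against 26.2% of all genes). Beside 3761 of all 12986 genes tested, the blocked fit called 8 of these 20 lower. None was higher at an unadjusted p under 0.05 by edgeR, nor by DESeq2. Their median log2 fold change was -0.31. The 4 with the smallest p were Birc5, Aurkb, Cdk1 and Cdc20, with log2 fold changes of -0.84, -0.70, -0.54 and -0.34. The first 3 passed (edgeR adjusted p = 0.000779, 0.00246 and 0.00286) and Cdc20 did not (0.0569). Psrc1 was therefore higher while Birc5, Aurkb and Cdk1 were lower.

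Of the 5 DNA repair genes, 3 rose (60%, against 27.4% of all genes) and 1 fell (20%, against 26.2%). Ercc5 (ENSMUSG00000026048.16, chromosome 1, 44146948 to 44181260), the XPG endonuclease gene of nucleotide excision repair, stood at 37.6, 32.6 and 34.2 CPM in MA9+SETDB1 replicates, against 11.6, 12.4 and 13.1 CPM in MA9+EV replicates. It rose by a log2 fold change of 1.49 (adjusted p = 0.000145 by edgeR, SE 0.13). Xpc (ENSMUSG00000030094.8, chromosome 6, 91489305 to 91515888), which encodes the lesion sensor of the same pathway, moved the other way. It had 53.5, 41.0 and 38.7 CPM in MA9+SETDB1 replicates and 158, 119 and 122 CPM in MA9+EV replicates. It fell by 1.58 on the log2 scale (adjusted p = 0.000406 by edgeR, SE 0.17).

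Ddb2, which encodes a further sensor of ultraviolet lesions, ranged from 15.7 to 24.5 CPM in MA9+SETDB1 and from 7.68 to 12.3 CPM in MA9+EV. The fit gave a log2 fold change of 1.05 (adjusted p = 0.0142 by edgeR, SE 0.26), and the call was lost without MA9+EV replicate 2 (adjusted p = 0.0553), without MA9+EV replicate 3 (0.0562) and with replicates 2 and 3 summed (0.0917). Rrm2b, the p53-inducible subunit gene of ribonucleotide reductase, ranged from 23.4 to 35.9 CPM in MA9+SETDB1 and from 13.3 to 18.2 CPM in MA9+EV. It rose by a log2 fold change of 0.97 (adjusted p = 0.0089 by edgeR, SE 0.22), a call lost with replicates 2 and 3 summed (0.0854). Polk, a translesion polymerase gene, overlapped between the arms (19.7 to 32.3 CPM in MA9+SETDB1, 20.4 to 22.4 CPM in MA9+EV, edgeR adjusted p = 0.395).

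Of the 4 metabolic genes 1 rose and 1 fell, shares of 25% each that are near the 27.4% and 26.2% over all genes. Tigar (ENSMUSG00000038028.9, chromosome 6, 127085116 to 127109552), which encodes a phosphatase that lowers fructose-2,6-bisphosphate and so slows glycolysis, had the strongest fall of the 32 genes. It stood at 8.22, 13.6 and 12.3 CPM in MA9+SETDB1 replicates, against 68.3, 79.6 and 77.0 CPM in MA9+EV replicates. It was 6.58-fold lower by the fit, a fall of 2.72 on the log2 scale (adjusted p = 8.23e-05 by edgeR, SE 0.20). Dcxr (ENSMUSG00000039450.11, chromosome 11, 120724546 to 120727284), the dicarbonyl and L-xylulose reductase gene, had 37.6, 60.1 and 58.9 CPM in MA9+SETDB1 replicates and 13.5, 18.1 and 17.8 CPM in MA9+EV replicates. Its log2 fold change was 1.66 (adjusted p = 0.000943 by edgeR, SE 0.22). Sesn1, a sestrin gene whose product restrains mTORC1, ranged from 32.9 to 48.3 CPM in MA9+SETDB1 and from 30.7 to 35.6 CPM in MA9+EV (edgeR adjusted p = 0.32). The adenylate kinase gene Ak1 was scarce, at 1.73 to 3.23 CPM in MA9+SETDB1 and 1.24 to 2.72 CPM in MA9+EV (edgeR adjusted p = 0.469).

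Across the 6 roles, rises were called in every group, and the falls were Ppm1d, Xpc and Tigar, 1 each in the feedback, repair and metabolic groups. The 16 genes with calls that held under all 15 alternatives were Perp, Zfp385a, Zmat3, Tigar, Psrc1, Ercc5, Phlda3, Mdm2, Eda2r, Trp53inp1, Plk3, Xpc, Dcxr, Ppm1d, Ccng1 and Btg2. The 5 others called, Trp53, Plk2, Tnfrsf10b, Ddb2 and Rrm2b, lost their call under at least 1 alternative and kept their direction. The share of all genes whose calls held in this way was not counted, so these 16 describe single genes and not the list.

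**Figure D3:**
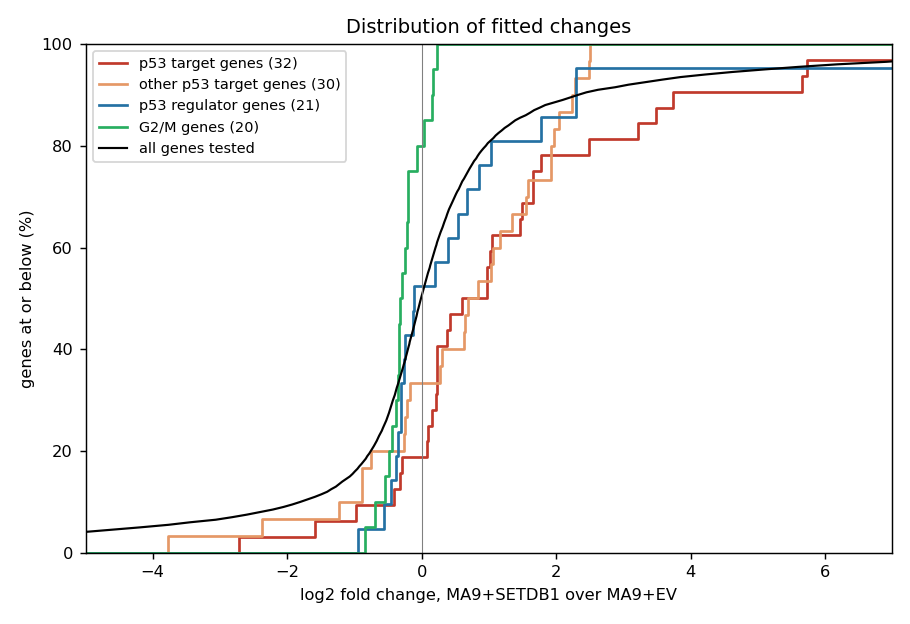
Cumulative share of genes (%) by fitted log2 fold change of MA9+SETDB1 over MA9+EV, for the 32 p53 target genes, 30 other p53 target genes, 21 p53 regulator genes, 20 G2/M genes and all 12986 genes tested; the axis stops at -5 and 7, so Perp at 11.69 and Cdkn2a at 7.38 lie beyond it. Both target curves run right of that of all genes over most of the range, with medians of 0.79 and 0.76, and the G2/M curve is steep around -0.31.

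A further list held 34 other genes known as p53 targets, mostly from human work. It was chosen with earlier results of these data known, and 30 of its genes were tested. Of these, 17 rose (56.7%, against 27.4% of all genes) and 6 fell (20%, against 26.2%), with a median log2 fold change of 0.76. With replicates 2 and 3 summed, 12 were higher and 2 lower, in a fit that also called fewer genes over all in both directions. Cdkn1a, which encodes the cyclin-dependent kinase inhibitor p21, stood at 394, 626 and 610.0 CPM in MA9+SETDB1 replicates, against 53.02, 126 and 112 CPM in MA9+EV replicates (log2 fold change 2.48 with SE 0.36, adjusted p = 0.00128 by edgeR). In both arms replicate 1 had the lowest Cdkn1a. Bax, a pro-apoptotic BCL2 family gene, had a log2 fold change of 0.84 (edgeR adjusted p = 0.00182). The 4 genes with the smallest p all rose, namely the tetraspanin gene Cd82 (log2 fold change 2.28), the small GTPase gene Rap2b (1.06), the ubiquitin ligase subunit gene Fbxw7 (1.34) and the antiproliferative gene Btg1 (2.51), a paralog of Btg2. The 6 that fell, named after their values were seen, were Gdf15 (-3.77), Dram1 (-2.37), Ninj1 (-1.22), Cyfip2 (-0.89), Tap1 (-0.89) and Fbxo22 (-0.75). By the fit, the change of Gdf15, a secreted stress cytokine gene, was larger than any rise in this list. Its reads were few, at 3, 6 and 9 in MA9+SETDB1 replicates and 26, 142 and 139 in MA9+EV replicates. The 95% interval ran from -5.67 to -1.87 (SE 0.80), so that the change need not exceed the 2.51 of Btg1.

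Of 23 genes for regulators of p53, 21 were tested, and 8 rose (38.1%, against 27.4% of all genes) and 4 fell (19%, against 26.2%), with a median log2 fold change of -0.11. The number lower was 8 without MA9+SETDB1 replicate 1, and 2 without MA9+SETDB1 replicate 2, MA9+SETDB1 replicate 3 or MA9+EV replicate 3. Over all genes tested, 4063 of 13694 were lower without MA9+SETDB1 replicate 1. Without MA9+SETDB1 replicate 2 the number was 2727 of 13569, and without MA9+SETDB1 replicate 3 it was 2781 of 13294. Trp63 and Trp73, the paralogs of Trp53, were not tested, with summed counts of 0 and 1 in MA9+SETDB1 and 6 and 0 in MA9+EV. Cdkn2a (ENSMUSG00000044303.6, chromosome 4, 89274473 to 89294619) encodes the MDM2 inhibitor ARF and the kinase inhibitor p16 from overlapping reading frames, which a count per gene does not separate. It stood at 153, 452 and 454 CPM in MA9+SETDB1 replicates 1, 2 and 3, against 1.24, 2.41 and 2.72 CPM in MA9+EV replicates. Replicate 1 was the lowest in both arms, and the fit gave 167-fold (log2 fold change 7.38 with SE 0.59, adjusted p = 0.000104 by edgeR). Trp53bp1, a repair scaffold gene, Trim24, a ubiquitin ligase gene for p53, and Ppp1r13b, the ASPP1 gene, also rose, by log2 fold changes of 1.03, 2.29 and 2.30. Wrap53, the gene next to Trp53, had a log2 fold change of 0.19 (edgeR adjusted p = 0.291).

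Within both arms, replicate 1 differed from replicates 2 and 3. For 20 of the 32 genes (62.5%) replicate 1 was the highest library in both arms, against 24.4% of all genes tested, and for 5 genes (15.6%) it was the lowest in both, against 26.7%. The 20 genes included Trp53, Mdm2, Mdm4, Ccng1, Zmat3, Phlda3, Btg2 and Xpc, and so held genes that rose, Xpc, which fell, and Mdm4, which did not pass. For Btg2, replicate 1 exceeded the mean of replicates 2 and 3 by 1.13 on the log2 scale in MA9+SETDB1 and by 0.63 in MA9+EV. For Phlda3 these differences were 0.45 in MA9+SETDB1 and 0.81 in MA9+EV. The 5 genes with replicate 1 lowest in both arms were Ak1, Dcxr, Plk3, Rrm2b and Tigar, and Cdkn1a and Cdkn2a, which are not among the 32, were also lowest there. Replicates of one arm have no order, and no label says what sets replicate 1 apart.

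**Figure D4:**
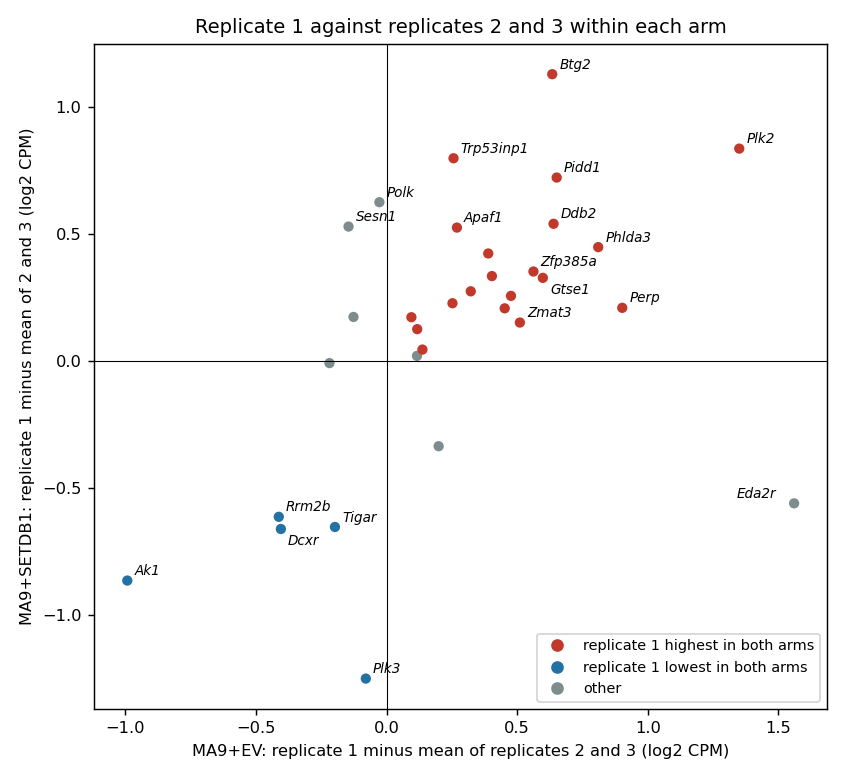
Difference of replicate 1 from the mean of replicates 2 and 3 on the log2 CPM scale, for the 32 genes, in MA9+SETDB1 (vertical) and MA9+EV (horizontal). The 20 genes whose replicate 1 is the highest in both arms (red) lie in the upper right, the 5 with replicate 1 lowest in both (blue) in the lower left, and Eda2r, with 7, 2 and 1 reads in MA9+EV, lies apart.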

How the data were processed

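Strand-specific poly-A RNA-seq libraries, per the labels' protocols, gave 1 file each of whole-number read counts per gene as deposited by the authors, without normalization, ending in 5 summary lines that name no gene. These lines held 24.6% to 26.3% of entries per library and entered neither the library sizes nor the tests. The submitters' processing notes name GRCm38 and, among other tools with no role or order, STAR 2.6.0c and HTSeq 0.11.0. The strand option chosen for HTSeq was not given in the labels or headers. Plk3, Ddb2 and Apaf1, whose spans overlap the protein-coding genes Tctex1d4, Acp2 and Ikbip, are less certain. The series' other 20 samples (ChIP-seq, ATAC-seq) were not analysed here.

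Of 54146 gene identifiers, 52480 matched a symbol by version, 1599 by stable identifier and 67 not at all. Coordinates are from RefSeq (GRCm38.p6). In R 4.3.3 with limma 3.58.1 and edgeR 4.0.16, low genes were removed by filterByExpr, libraries were scaled by TMM, and the quasi-likelihood test of edgeR compared the arms. Adjustment was by Benjamini-Hochberg over 12986 genes, at a threshold of 0.05. CPM values use TMM-scaled library sizes. A count of 3 corresponded to 0.124 to 0.183 CPM. The F statistic supplied standard errors and 95% intervals of log2 fold changes. The biological coefficient of variation (common estimate) was 0.244. The code was tested on simulated data. DESeq2 1.42.0 was an alternative, beside other scalings and filters, each library left out, a block and summed replicates.

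Both arms number their replicates 1 to 3 in the titles. After subtracting each arm's mean, libraries numbered 1 had a correlation of 0.257 over genes, those numbered 2 of 0.196 and those numbered 3 of 0.169. The numbers were therefore taken to pair the libraries, for a fit with the number as a block. Replicates 2 and 3 also correlated across numbers (0.203 and 0.177), so the numbers separate replicate 1 from the others and not 2 from 3.

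The members and lists were chosen with earlier results of these data known. All 32 members are accounted for. Values in every library are given for the 16 with the smallest p and for Trp53, Mdm2, Mdm4 and Ppm1d. From each other list the 4 genes with the smallest p were named, with Cdkn1a, Bax, Cdkn2a and Wrap53 added whatever their p. Values of some single marker genes are not reported here.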

Additional observations from a re-analysis of the deposited data

How the results depend on the processing

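Under 15 alternatives the number of p53 target genes called higher stayed between 13 and 21, against 18. The 13 came with replicates 2 and 3 summed, and the 21 with replicate 1 left out of both arms. The median log2 fold change of the 32 genes stayed between 0.72 and 0.87, and that of Setdb1 between 2.32 and 2.51. The number called lower was 5 with the replicate block and 6 with replicate 1 left out of both arms, an alternative chosen after seeing the data. Leaving out 1 library at a time gave 14 to 19 of the 32 genes higher and 3 to 5 lower, 2 to 8 regulator genes lower, 0 to 1 G2/M genes higher and 3 to 5 lower. The calls over all genes also varied, from 2992 to 4231 higher and from 2727 to 4063 lower when an MA9+SETDB1 library was left out. G2/M genes called lower numbered 8 with upper-quartile scaling and 8 with the replicate block, beside 3812 and 3761 of all 12986 genes tested. The block changed no other call among the named genes than those of Apaf1 and Ckap2. With replicates 2 and 3 summed, 2292 genes were higher and 1928 lower over all, 2 other p53 targets were lower, and 5 regulator genes were higher and 1 lower. At an adjusted p under 0.01, 2 regulator genes were lower. With replicate 1 left out of both arms, 5285 genes were lower over all, 11 regulator genes were lower, and 4 G2/M genes were higher and 11 lower. That comparison rests on libraries that differ little within an arm. The signs of Pidd1, Polk and Sesn1, which did not pass, turned in some alternatives. With 1 library left out, Pidd1 ranged from -0.19 (without MA9+SETDB1 replicate 1) to 0.329, and was -0.03 without MA9+EV replicate 2 and -0.05 without MA9+EV replicate 3. Polk ranged from -0.00795 (without MA9+SETDB1 replicate 1) to 0.365. With replicate 1 left out of both arms, Polk stood at -0.0153 and Sesn1 at -0.0114. Fewer samples enter the summed and left-out fits, and for the other changes the cause was not tested. Counts of Perp and Eda2r in MA9+EV, of Gdf15 in MA9+SETDB1 and of Plk2 and Ak1 in both arms were low. This limits the precision of their fold changes.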
